A study of Mus musculus with 4 samples.

Results

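Isoforms with 20 or more exons are the most finely divided transcripts in these long-read data from the mouse retina. They were chosen by counting the exons of each transcript model in the deposited annotation and keeping every model with at least 20. This gave 1464 isoforms of 794 genes, out of 44325 isoforms of 16702 genes in the count table. A transcript model was deposited for 36426 of those isoforms, and the other 7899 could not be counted for exons. Every model belonged to an isoform with at least 1 count in rods, so an isoform with many exons that was never counted in a rod is outside this set.

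The cells came from retinas of wild-type male C57BL6/J mice. There were 4 libraries: 2 without enrichment, of which 1 was from postnatal day 40 and 1 has no age in the labels, 1 labelled CD73 enrichment from postnatal week 8 and 1 labelled CD90.2 enrichment from postnatal month 4. CD73 marks rod photoreceptors and CD90.2 marks ganglion cells and other inner neurons; the protocol text describes removal of photoreceptors, whereas the label reads as their enrichment. Counts were deposited in 6 columns by cell class, for rods, cones, retinal ganglion cells (RGC), amacrine cells (AC), bipolar cells (BC) and Müller glia (MG), with no column for a library. Each class was therefore 1 pooled sample, no value has a replicate, no test between classes was possible, and the 95% intervals below cover counting error only.

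The columns held between 3509890 counts (RGC) and 55437340 counts (Rod), and levels are given as counts per 1000000 counts of a column (CPM). A count of 0 allows a level of up to 0.0541 CPM in Rod, 0.0622 in AC, 0.103 in BC, 0.411 in Cone, 0.489 in MG and 0.855 in RGC, which is the level of 3 counts. Of 36 marker genes listed for the 6 classes, 35 were highest in their own column, and the exception was Dkk3, highest in AC. The rod genes Gnat1, Cnga1 and Nrl, summed, stood at 0.822% of their Rod level in AC, 1.70% in BC, 4.18% in Cone and 3.06% in MG, and had 0 counts in RGC.

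Most genes with many exons encode long proteins built from repeated or multiple domains, such as collagens, motor proteins, channels and large enzymes. Their transcripts are joined from many short coding exons, and cell types can include or leave out single exons to make different proteins. A read that starts at the poly(A) tail must cross the whole transcript to report all of these choices together, which is what long reads add to short ones.

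The exons below are those on which the class differences described later turn. Each is present in 1 isoform and absent from another that is otherwise spliced alike, except the pair from Acsl6, where each isoform holds 1 of the 2 exons. On GRCm38, the plus strand carries the exons of Gphn at chr12:78493950-78494057, Gripap1 at chrX:7803594-7803686, Mia2 at chr12:59146336-59146362, Dctn1 at chr6:83183936-83183956, Arntl at chr7:113281402-113281422 and Acsl6 at chr11:54336936-54337013 and chr11:54337071-54337148. The minus strand carries those of Ap2a1 at chr7:44903462-44903527, Clasrp at chr7:19595459-19595556, Xpnpep1 at chr19:53032009-53032097, Map2k5 at chr9:63357993-63358060, Mars at chr10:127296717-127296740 and Gramd1a at chr7:31133220-31133231. All lie inside the coding region of a GENCODE M21 transcript, from which the letters were taken, 5′ to 3′ on the transcript. Capitals mark the exon that varies, and the lower-case letters are the 12 nt that flank it in the spliced transcript.
Gphn exon of 108 nt: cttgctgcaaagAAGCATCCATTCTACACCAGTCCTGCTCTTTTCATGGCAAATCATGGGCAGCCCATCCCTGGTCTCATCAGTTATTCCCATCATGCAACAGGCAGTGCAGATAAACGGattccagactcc
Gripap1 exon of 93 nt: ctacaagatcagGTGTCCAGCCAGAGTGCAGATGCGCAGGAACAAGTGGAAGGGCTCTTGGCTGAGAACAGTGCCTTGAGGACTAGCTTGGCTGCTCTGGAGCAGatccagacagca
Ap2a1 exon of 66 nt: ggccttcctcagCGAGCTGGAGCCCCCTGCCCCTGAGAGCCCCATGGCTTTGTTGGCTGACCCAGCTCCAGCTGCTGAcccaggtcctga
Clasrp exon of 98 nt: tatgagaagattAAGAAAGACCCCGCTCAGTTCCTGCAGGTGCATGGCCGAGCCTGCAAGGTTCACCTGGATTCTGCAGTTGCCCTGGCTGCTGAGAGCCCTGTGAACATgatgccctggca
Xpnpep1 exon of 89 nt: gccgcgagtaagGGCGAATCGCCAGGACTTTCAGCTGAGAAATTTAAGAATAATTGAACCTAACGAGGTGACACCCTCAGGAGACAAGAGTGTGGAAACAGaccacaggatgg
Map2k5 exon of 68 nt: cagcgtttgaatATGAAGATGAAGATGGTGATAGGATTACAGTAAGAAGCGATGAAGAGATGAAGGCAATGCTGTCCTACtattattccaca
Mia2 exon of 27 nt: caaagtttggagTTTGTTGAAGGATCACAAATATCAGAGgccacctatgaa
Mars exon of 24 nt: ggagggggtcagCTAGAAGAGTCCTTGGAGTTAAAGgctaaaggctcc
Dctn1 exon of 21 nt: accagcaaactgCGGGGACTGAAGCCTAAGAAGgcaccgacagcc
Arntl exon of 21 nt: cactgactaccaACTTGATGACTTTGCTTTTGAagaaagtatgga
Gramd1a exon of 12 nt: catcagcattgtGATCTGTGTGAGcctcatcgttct
Acsl6 first exon of the pair: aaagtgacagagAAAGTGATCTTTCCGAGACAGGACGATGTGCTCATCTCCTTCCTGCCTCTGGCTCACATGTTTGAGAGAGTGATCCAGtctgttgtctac
Acsl6 second exon of the pair: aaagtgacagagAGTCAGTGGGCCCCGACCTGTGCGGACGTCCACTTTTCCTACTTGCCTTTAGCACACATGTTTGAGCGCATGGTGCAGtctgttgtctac

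The exon number ranged from 20 to 54 with a median of 22, and 3 in 4 isoforms had 25 or fewer. The 54 exons belonged to Col2a1, which encodes the chain of type II collagen, and a second Col2a1 isoform had 53. Col18a1, a basement membrane collagen, followed with 42, Plcb4, a phospholipase C, with 40 and the ubiquitin ligase gene Rnf123 with 39. Spliced length had a median of 3334.5 nt and did not exceed 5104 nt, whereas the genomic span reached 888 kb around a median of 43.9 kb. At the edge of the rule, the 19-exon isoforms with the most counts were from Bin1 (8628 counts), Rhot1 (3643) and Bbs7 (3604), and the 20-exon ones from Nae1 (10696), Acadvl (6608) and Ik (5046).

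Together the 1464 isoforms held 360814 counts, 0.241% of the 149645836 in the table. Their median was 35 counts each, against 94 for isoforms of 2 to 19 exons. The counts were concentrated in few isoforms: the 2 with the most, from Pfkl and Pde6b, held 16.8% of them, the first 20 held 42.5% and the first 100 held 69.4%. A total near the median gives a wide counting interval in any single class.

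An isoform is called annotated here when its identifier is that of an Ensembl transcript, and 755 of the 1464 were (51.6%, interval 49.0 to 54.2). That share was 41% over all isoforms with a model, which include 2909 of a single exon with none annotated. It was 48.2% for 2 to 4 exons, 42.1% for 5 to 9, 43.1% for 10 to 14 and 45.4% for 15 to 19, and next to the rule it was 50.7% at 19 exons and 46.2% at 20. It stood at 49.9% for 20 to 24 exons, 53.8% for 25 to 29 and 63.2% (interval 52.6 to 72.8) for 30 or more. By counts, annotated isoforms carried 87.0% of the set's counts and 94.9% of those of isoforms with 2 to 19 exons. Nearer to the rule the share was lower than in the set, with 86.0% for 10 to 19 exons and 65.6% for 15 to 19. In the set the annotated isoforms had a median of 66 counts and 29.3% of their gene's counts. The unannotated ones had a median of 21 counts and 6.52% of their gene.

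**Figure D1:**
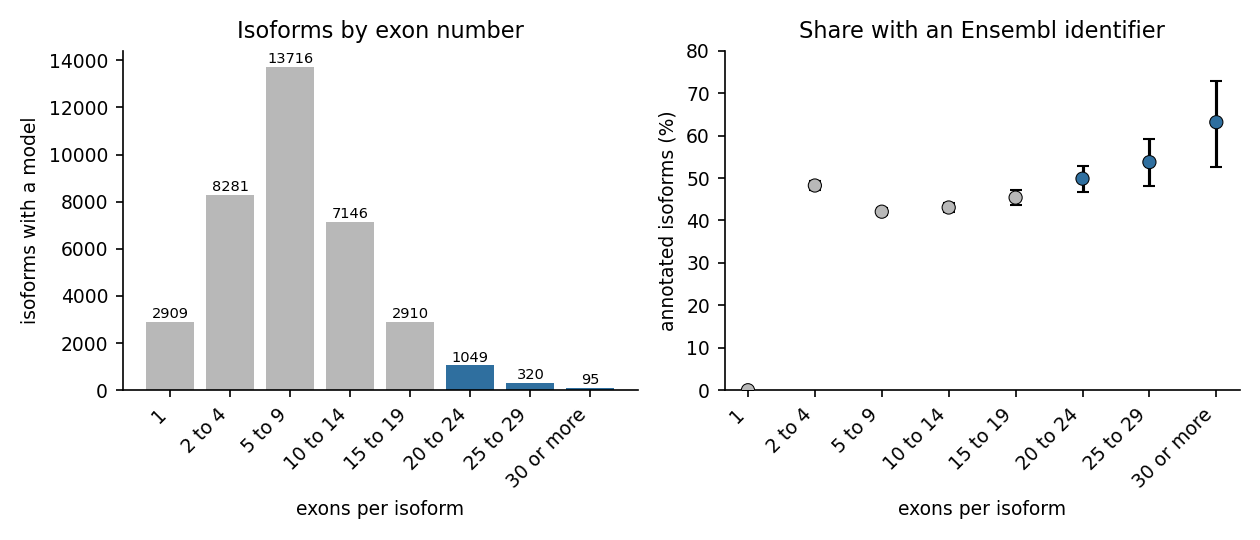
Isoforms with a transcript model by exon number (left, number of isoforms) and the share of each bin with an Ensembl identifier (right, percent, with exact 95% binomial intervals). Blue marks the bins of 20 or more exons, 1049, 320 and 95 isoforms, whose annotated share goes from 49.9% to 63.2%.

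The unannotated isoforms were almost entirely built from known pieces. Of 18777 distinct splice junctions in the set, 18577 (98.9%) were in GENCODE M21. Among the 709 unannotated isoforms, 590 (83.2%, interval 80.3 to 85.9) joined annotated splice sites in a combination that no reference transcript has, 115 (16.2%) were an unbroken part of a reference transcript's chain of introns, and 4 used a splice site outside the reference. In 382 of the 590, every intron was itself annotated and only the combination was not. Among unannotated isoforms of 2 to 19 exons the shares were 70.5% for combinations and 29.1% for parts of a chain. Among those of 10 to 19 exons they were 79.9% and 20.0%, close to the set, so most of the difference lay with isoforms of fewer exons. A splice site outside the reference was rare in all of them, with 0.564% in the set, 0.124% at 10 to 19 exons and 0.302% at 2 to 19. The near absence of such sites was thus not particular to the set. The part of the program that built the models in it was not tested.

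Set against the isoform of their gene with the most counts, 690 unannotated isoforms differed most often at their ends. An alternative last exon was found in 41.7% and an alternative first exon in 33.5%. An internal exon was skipped in 27.7% and added in 19.6%, an alternative 3′ splice site was used in 16.2% and an alternative 5′ splice site in 7.83%. A retained intron was found in 2 isoforms (0.290%). An isoform could show several of these events. Set instead against the isoform of their gene with the most exons, a skipped exon came first (42.9%), before an alternative first exon (27.8%) and last exon (21.4%).

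The internal exons themselves were slightly shorter than elsewhere. The 17567 distinct internal exons had a median of 111 nt, against 120 nt for the 86183 in isoforms of 2 to 19 exons. A length divisible by 3, which leaves the reading frame intact when the exon is left out, was found for 40.6% of them and 38.4% of the others. There were 157 internal exons under 28 nt, the size called a microexon (0.894%, beside 0.679% in isoforms of 2 to 19 exons).

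Many genes whose reference transcripts have 20 or more exons were counted but gave no isoform of that size. GENCODE M21 holds 2569 such genes, 1982 of them had counts, and 774 (39.1%, interval 36.9 to 41.2) had an isoform in the set. The isoforms of the set held 23.5% of the counts of those 1982 genes. The share of genes with an isoform in the set was lower where the shortest qualifying reference transcript was longer: it was 64.7% (interval 55.4 to 73.2) up to 2500 nt, 46.2% between 3500 and 4000 nt, 20.3% between 5000 and 6000 nt and 8.20% above 8000 nt. Among genes with at least 100 counts the order was the same at both ends, from 73.9% to 11%.

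**Figure D2:**
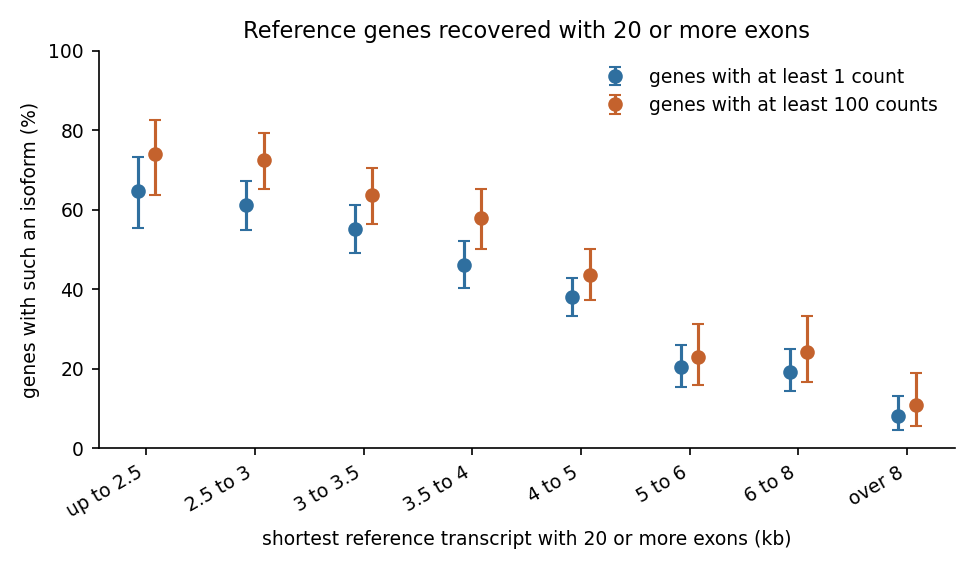
Share of reference genes with a transcript of 20 or more exons that had an isoform in the set (percent, exact 95% binomial intervals), by the length of the shortest such reference transcript in kb. Blue points are genes with at least 1 count and orange points genes with at least 100 counts; both go from over 60% for the shortest transcripts to 8.20% and 11% for those over 8 kb.

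Several genes central to photoreceptors were among those without an isoform in the set. Cngb1, the beta subunit of the rod cyclic nucleotide-gated channel, had 70868 counts on 2 isoforms of at most 13 exons, where the reference reaches 33; the gene is also known to encode short glutamic acid-rich proteins. Rpgrip1, a protein of the connecting cilium, had 21585 counts and at most 14 exons of 26. Abca4, the retinoid transporter of the outer segment, had 566 counts over 11 isoforms of at most 13 exons of 50. Tln1, which encodes the adhesion protein talin, had 38510 counts on 1 isoform with 2 exons, where the reference has 57.

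Gene groups differed in how often their members gave an isoform of this size. Of the listed genes with a qualifying reference transcript and counts, an isoform was found for 19 of 26 translation factor and aminoacyl-tRNA synthetase genes (73.1%), 45 of 65 spliceosome and RNA processing genes (69.2%) and 52 of 84 vesicle coat, tether and traffic genes (61.9%). The shares were 61.3% for ubiquitin and proteasome genes (38 of 62), 59.4% for nuclear pore and transport receptor genes (19 of 32) and 50.8% for metabolic enzymes (30 of 59). These groups stood above the 39.1% of all such genes, and the exact 95% interval of 1 of the 6, metabolic enzymes (37.5 to 64.1), included it.

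The remaining 10 lists stood below it, and the intervals of 7 of them included 39.1%, so only spectrins and other linkers, adhesion and matrix genes, and channels had an interval below it. Among photoreceptor and retinal disease genes 12 of 37 had an isoform in the set (32.4%), among ciliary and intraflagellar transport genes 20 of 53 (37.7%), among synaptic active zone and scaffold genes 19 of 54 (35.2%) and among ion pump and transporter genes 13 of 38 (34.2%). The share was 31.9% for chromatin and DNA repair genes (38 of 119), 30.6% for regulators of small GTPases (22 of 72), 29.8% for myosins, kinesins and dyneins (14 of 47) and 25.5% for spectrins and other linkers (14 of 55). It was 18.7% for adhesion and extracellular matrix genes (17 of 91) and 14.3% for voltage-gated and calcium release channels (6 of 42). The median shortest qualifying reference transcript was 5557 nt for adhesion and matrix genes and 4977 nt for channels, against 3884.5 nt for translation genes and 4139.5 nt over all 1982 genes. The lists were not ordered by this length alone: it was 3824.5 nt for ion pump and transporter genes, with 34.2%, and 4134 nt for spliceosome genes, with 69.2%. The lists overlap, since a gene such as Cacna1f, the photoreceptor calcium channel, stands in more than 1.

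By cell class, the summed level of the set was highest in the rod column, though not for its isoforms of 25 or more exons. The summed level was 3522 CPM in Rod, 2608 in BC, 2569 in MG, 2380 in Cone, 1098 in AC and 1081 in RGC. Rod was 3.21 times AC, and without the isoforms of Pfkl and Pde6b it was 2.58 times AC. At 25 or more exons MG was highest with 639.8 CPM, followed by BC with 487, Rod with 471, Cone with 351, RGC with 178 and AC with 149.7. The 32-exon isoform of Col9a1 alone had 239 CPM in MG, against 7.55 in BC and 4.56 in Rod. That is more than the distance from MG to BC or Rod, so the first place of MG rests on this 1 isoform. Isoforms of 10 to 19 exons spread less, from 7.50% of the AC column to 10.5% of the Rod column. The class with the highest CPM was Rod for 632 of the 1464 isoforms (43.2%, against 33.0% over all isoforms with a model), BC for 227, MG for 209, Cone for 161, AC for 160 and RGC for 75. Every isoform behind both shares had a rod count, and the depth of the columns differed by over 10 times, so that 1138 isoforms had a count in BC and 268 in RGC.

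The isoform with the most counts was that of Pfkl, the liver-type phosphofructokinase of glycolysis. It had 22 exons and all of its gene's counts on 1 isoform. Its level was 309 CPM in BC (interval 303 to 315), 302 in Rod (297 to 307), 225 in MG, 181 in Cone, 74.9 in RGC and 48.5 in AC. BC and Rod were the highest and their intervals overlapped, and AC was the lowest. Pfkp, the platelet-type enzyme, stood at 128 CPM in MG, 122 in Rod and 105 in BC, and at 9.62 in AC.

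Pygm, the muscle-type glycogen phosphorylase, had another order of classes. Its 20-exon isoform, the only one counted for the gene, stood at 125 CPM in Cone (interval 117 to 133), 53.8 in BC, 8.97 in MG, 5.61 in Rod and 0.622 in AC, with 0 counts in RGC. Cone was 2.32 times BC, and the intervals did not overlap. Acadvl, of mitochondrial fatty acid oxidation, had 88.0 CPM in MG, 83.4 in Rod and 9.02 in AC, and Hsd17b4, of the peroxisomal pathway, had 55.4 in MG, 47.7 in BC and 4.27 in AC. For both, the intervals of the first 2 columns overlapped.

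The catalytic subunits of the photoreceptor phosphodiesterases, which break down cyclic GMP in the light response, all had isoforms of 22 exons. Pde6b, of rods, had 28841 of its 29433 counts in Rod, at 520 CPM (interval 514 to 526), against 15.8 in MG, 13.1 in Cone, 8.72 in BC, 3.03 in AC and 0 counts in RGC. Pde6a, its partner in rods, stood at 51.8 CPM in Rod and 4.11 or less elsewhere. That isoform held 41.5% of the counts of Pde6a (2996 of 7225), whereas the Pde6b isoform held all of its gene's counts. Pde6c, the cone enzyme, stood at 167 CPM in Cone (158 to 177), 2.93 in BC, 2.71 in Rod, 1.63 in MG and 0.0207 in AC.

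The low values of Pde6b outside rods were set beside those of other rod genes. They were 0.582% of the Rod level in AC, 1.68% in BC, 2.53% in Cone and 3.04% in MG, where the summed rod genes named above gave 0.822%, 1.70%, 4.18% and 3.06%. The part of stray rod RNA in these values was not tested. Prom1, a membrane protein that shapes outer segment discs, had a 27-exon isoform at 26.0 CPM in Rod and 10.9 in Cone, and at under 1 CPM in AC, BC and MG. Mpp4, a scaffold of photoreceptor terminals, had 93.8 CPM in Rod and 63.2 in Cone on its 22-exon isoform, and 4.08 or less in AC, BC and MG.

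Several protein turnover and RNA genes had counts in all 6 columns. Nae1, a subunit of the NEDD8-activating enzyme, ranged from 37.8 CPM in AC to 95.2 in Rod, and Psmd2, of the regulatory particle of the proteasome, from 19.5 in AC to 54.6 in BC. Nedd4, a ubiquitin ligase with 29 exons, had 112 CPM in BC, 67.3 in MG and 55.7 in Cone against 16.7 in Rod and 5.49 in AC. The RNA helicase gene Ddx1 ranged from 28.8 in AC to 123 in BC, and the splicing factor gene Sf3b2 from 7.69 in RGC to 26.3 in Rod. Summed over their lists, ubiquitin and proteasome isoforms ran from 59.0 CPM in AC to 243 in BC, and spliceosome and RNA processing isoforms from 19.9 in RGC to 108 in Rod. Ncaph2, of the condensin II complex, was the only 1 of the 20 isoforms with the most counts to be highest in AC, at 28.6 CPM (interval 27.1 to 30.1) against 19.1 in BC.

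**Figure D3:**
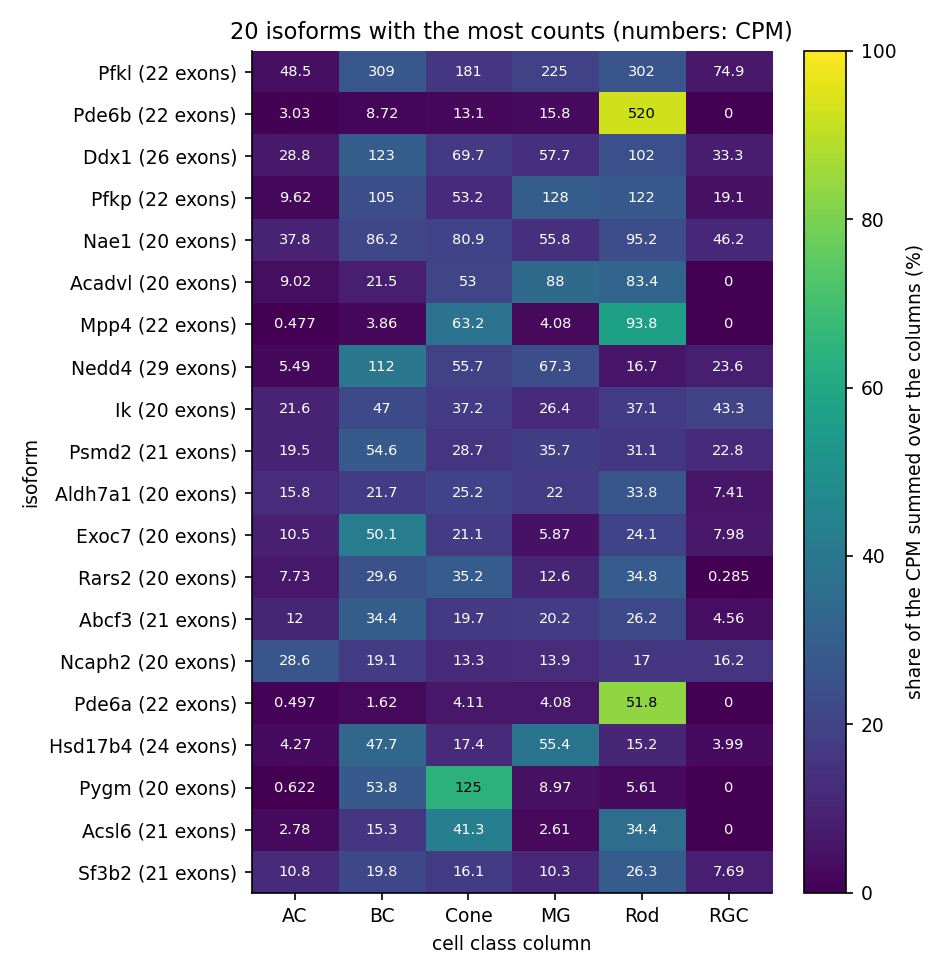
The 20 isoforms with the most counts (1 per gene), with the CPM in each of the 6 class columns written in each cell and the colour giving the share of the CPM summed over the columns (percent). Pde6b and Pde6a stand apart in Rod, Pygm in Cone, and most others are spread over several columns with the lowest values in AC or RGC.

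The outer segment of rods is a modified cilium. Of 29 isoforms of the listed ciliary genes, 22 were highest in Rod, beside 43.2% of the set and 33.0% of all isoforms with a model, all of which had a rod count. Ift74, of the intraflagellar transport complex, had 8.19 in Rod and 4.84 in RGC, with 1.18 in AC.

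Among adhesion and matrix genes, 1 collagen isoform set the summed level in MG. Of their 24 isoforms, 8 were highest in MG, 7 in BC and 6 in Rod. They summed to 278 CPM in MG and to between 5.13 and 19.1 CPM in the other columns, and without Col9a1 to 39.3 CPM in MG and between 4.65 and 11.5 elsewhere. Col9a1, a chain of type IX collagen with 32 exons, stood at 239 CPM in MG (interval 227 to 252), 8.00 in AC, 7.55 in BC, 4.56 in Rod and 4.52 in Cone. Col9a2, its partner chain, had 29.8 in MG and 1.21 or less elsewhere, and the 54-exon isoform of Col2a1 had 20 of its 23 counts in MG. The MG column was also the highest for summed markers of pigment epithelium (8832 CPM, against 2.85 to 62.5 elsewhere, 5 of 6 genes highest there), microglia (1609, against 9.97 to 694, 6 of 6 genes), astrocytes (119, against 0 to 4.10, 4 of 4 genes counted), pericytes (355, against 0 to 12.8, 3 of 3 genes counted) and endothelium (27.2, against 0 to 1.10, 2 of 2 genes counted), and the part of those cells in the collagen values was not tested. Col6a1, a chain of type VI collagen with 35 exons, had the opposite pattern, with 201 of 206 counts in AC (4.17 CPM, interval 3.61 to 4.78) and 0 in MG.

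Class-restricted isoforms were those with at least 10 counts and at least 80% of their summed CPM in 1 class. In the set 214 of 1241 isoforms met this rule (17.2%, interval 15.2 to 19.5), beside 19.2% of the 33059 isoforms with a model and that many counts. The share near the background gives no result about the set as a whole. By class, 126 were restricted to Rod (10.2%, background 7.97%), 39 to MG (3.14%, background 3.91%), 16 to AC (1.29%, background 3.01%), 14 to BC (1.13%, background 2.11%), 13 to RGC (1.05%, background 1.21%) and 6 to Cone (0.483%, background 1.02%). Every isoform behind these shares, in the set and the background, had a rod count. An isoform wholly absent from rods could therefore not be counted as restricted to another class, and the order of the classes carries this condition. With at least 50 counts the set gave 38 of 594 (6.4%), beside a background of 9.9%.

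Annotation differed between the restricted isoforms of rods and glia. Of the 126 in Rod, 27 were annotated (21.4%), and of the 39 in MG, 28 were (71.8%). Over all restricted isoforms with a model the shares were 13.2% in Rod and 63.4% in MG, so the contrast was not particular to the set. The restricted isoforms were thinly counted, with a median of 19 counts against 46 over all 1241. Those with the most counts were Pde6b and Pde6a in Rod, Col9a1 and Col9a2 in MG, Pde6c in Cone, a 22-exon Gphn isoform in BC, Col6a1 in AC and Camk2d in RGC.

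Restricted isoforms of the ganglion cell column included 2 that were shared with amacrine cells at a lower level. Camk2d, a calcium/calmodulin-dependent kinase, had a 20-exon isoform at 26.5 CPM in RGC (interval 21.4 to 32.5) and 3.44 in AC, with 3 counts in Rod and 0 in BC, Cone and MG. A 20-exon isoform of Clasrp, a splicing regulator, had 12.5 CPM in RGC (9.11 to 16.8) and 1.14 in AC. Although their CPM was highest in RGC, the AC column held 166 and 55 of their counts and the RGC column 93 and 44.

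For the genes themselves, these isoforms were the main product about as often as not. Of 771 genes with at least 20 counts, isoforms of 20 or more exons held 50% or more of the counts in 348 (45.1%, interval 41.6 to 48.7), and the most abundant isoform was 1 of them in 394 (51.1%). The median share was 40.2%, with 98 genes wholly and 158 genes under 10% on such isoforms. Where the most abundant isoform was outside the set (377 genes), it had a median of 7 exons among those with a model, and 215 of the 377 had 1 to 9 exons.

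**Figure D4:**
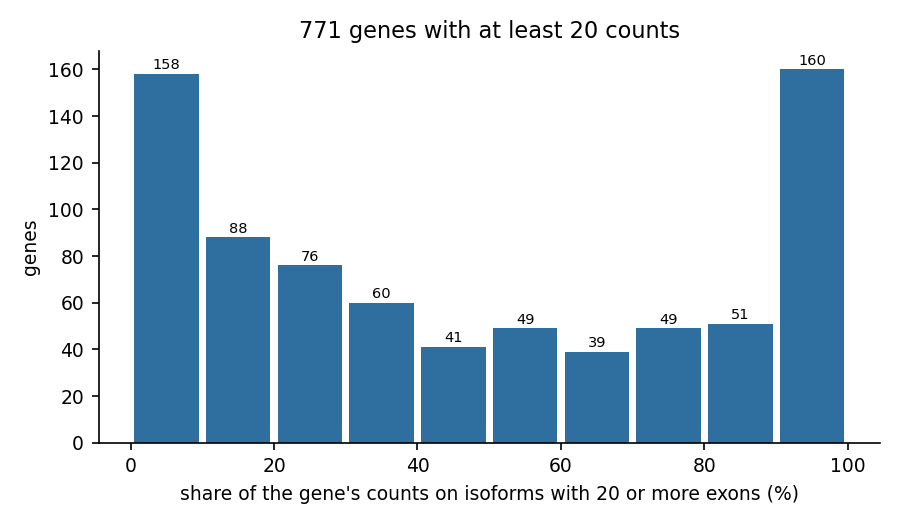
Number of genes (of 771 with at least 20 counts) by the share of the gene's counts on isoforms of 20 or more exons, in steps of 10 percentage points. Both ends are the fullest, with 158 genes under 10% and 160 genes at 90% or above.

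The share of gene counts differed between classes, and the genes that could be compared did too. Over all genes with at least 20 counts in a class, its median ran from 28% in AC and 42.4% in BC to 68.2% in Cone and 89.4% in MG, but the genes counted in each class were not the same. In the 140 genes that had at least 20 counts in each of AC, BC, Cone, MG and Rod, the median was 89% in AC, 91.6% in BC, 93.9% in Rod, 95.8% in Cone and 96.8% in MG. With the counts of those 140 genes added up, the share ran from 44.8% in AC to 71.7% in MG, nearly as far apart as over all genes (41.2% and 70.8%). Isoforms without a model counted toward the gene but could not be in the set, and they had no counts in Rod. They could therefore lower the share in every class except Rod, and their part in these differences was not tested.

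The shorter isoforms of these genes kept their 5′ ends more often than their 3′ ends. The genes had 2094 isoforms of fewer than 20 exons with 296202 counts. Of these, 730 shared only the first intron with the gene's most abundant isoform of the set and held 52.4% of the counts, 384 shared only the last intron and held 16.1%, 196 shared both and 784 shared neither. An unbroken part of that longer isoform's chain of introns made up 495 of them, 230 of which held its first intron and 72 its last.

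Dominant isoforms were compared between classes for genes with at least 2 isoforms and at least 20 counts in both classes of a pair. A gene was called switched when the classes had different leading isoforms and either of these changed its share of the gene by at least 50 percentage points. Of 560 genes with an isoform in the set, 203 were switched in at least 1 of 15 class pairs (36.3%, interval 32.3 to 40.4), beside 25% of all 7475 genes that could be compared. In 126 of the 203 at least 1 of the 2 isoforms had 20 or more exons, and in 24 both had. At a minimum of 100 counts per class the numbers were 31 of 235 genes (13.2%, interval 9.14 to 18.2), beside 10.2% of all, and 19 of the 31 involved the set. By class pair, switches that involved the set were found in 50 of 468 genes compared between AC and Rod (10.7%), 45 of 416 between AC and BC (10.8%), 10 of 55 between MG and RGC (18.2%, interval 9.08 to 30.9) and 2 of 211 between Cone and Rod (0.948%, interval 0.115 to 3.38). Counting every switch of these genes, the shares were 21.2%, 17.8%, 27.3% and 2.37%, beside 10.9%, 9.29%, 13% and 1.19% of all genes compared. Some switches between AC and Rod, such as those of Taf2 and Lss, had a leading AC isoform without a model and with 0 counts in Rod. Every isoform of the set had a rod count, and the part of this in the number for AC and Rod was not tested.

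Acsl6, which couples long-chain fatty acids to coenzyme A, switched between 2 annotated isoforms that both had 21 exons. The isoform with the second of its paired 78 nt exons printed above held 63.8% of the gene's counts in MG (173 of 271), 11.6% in AC and under 1% in BC, Cone and Rod. The isoform with the first exon held 89.4% in Rod (1906 of 2132), 78.4% in Cone, 75.7% in BC, 64.7% in AC and 5.90% in MG. The neuronal columns with counts thus lay apart from the MG column. The paired exons were identical at 46 of 78 positions, and the 2 isoforms also differed in their first exons. The markers of pigment epithelium and microglia that the MG column also held, given above, apply to every MG value of a switch or exon, and their part in these was not tested.

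Eml2, a microtubule-binding protein, gave the largest difference in share of the 10 switches named. Its 22-exon isoform held 94.1% of the gene's counts in RGC (112 of 119), 56.0% in BC, 53.4% in AC and 1.63% in MG. A 19-exon isoform that starts further downstream held 98.4% in MG (121 of 123), 14.4% in BC, 2.49% in AC and 0 counts in RGC. In Rod the 19-exon isoform of Eml2 held 54.1% (20 of 37) and the 22-exon isoform 40.5%. Exoc7, of the exocyst that tethers secretory vesicles, had a 20-exon isoform at 80.8% of the gene in BC, 71.5% in AC, 69.3% in Rod, 68.4% in Cone and 11.3% in MG. An 18-exon isoform that lacks internal exons of 39 and 93 nt held 81.1% in MG and 3.21% or less in AC, BC, Cone and Rod.

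Gphn encodes gephyrin, the scaffold of glycine and GABA receptors at inhibitory synapses. Its 23-exon isoform held 77.5% of the gene's counts in Rod (227 of 293), 74.6% in Cone and 89.7% in MG, but 5.01% in BC and 1.00% in AC. In AC and BC, 85.8% and 60.1% of the counts were on an unannotated 8-exon isoform that begins at the same place and ends inside the gene. Amph, the endocytic protein amphiphysin, had 56.7% of its AC counts on a 21-exon isoform (153 of 270), whereas a 15-exon isoform with an earlier end held 79.2% in BC.

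The other switches followed the pairs of AC or BC with Rod, with 1 exception. Atp2c1, a calcium and manganese pump of the Golgi, switched between unannotated isoforms of 29 exons (54.3% in BC, 3.18% in Rod) and 27 exons (70.8% in Rod, 0.725% in BC). Pitpnm1, a phosphatidylinositol transfer protein, had a 24-exon isoform at 58.0% in Rod and 5.33% in BC. Thoc5, of the THO complex for messenger RNA export, had a 20-exon isoform at 78.7% in AC and 10.7% in Rod. Agtpbp1, a deglutamylase of tubulin, had 89.2% of its AC counts on an isoform of 2 exons, and its 25-exon isoform held 16.2% in Rod (interval 11.6 to 21.7) and 0 of 158 counts in AC. In Rod the 2-exon isoform of Agtpbp1 held 14.4% (10.1 to 19.7), so which of them led there was within counting error. The exception, Rec8, a cohesin subunit known from meiosis, had a 20-exon isoform at 76.0% in AC and 10.8% in BC.

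Cassette exons were read from pairs of isoforms of 1 gene whose introns differ by exactly 1 internal exon, with at least 1 of the pair in the set. There were 389 such pairs, for 325 exons in 215 genes, and 183 of the 325 lengths (56.3%, interval 50.7 to 61.8) were divisible by 3. Where both isoforms were annotated this was so for 89.3% of 56 exons. Where the annotated isoform held the exon and the unannotated one lacked it, it was so for 43.4% of 143 exons (interval 35.1 to 51.9), near the 40.6% of all internal exons of the set. Where the unannotated isoform added the exon it was so for 63.3% of 49 (48.3 to 76.6).

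The share of a pair's counts with the exon could be compared between at least 2 classes, with 20 or more counts in both, for 216 exons. The range over classes had a median of 17.1 percentage points, reached 25 points for 72 exons and 50 points for 22. The range over up to 6 thinly counted classes is wide from counting alone, so the exons described next are those with the most counts or with at least 50 counts of both isoforms. Where several pairs differed by the same exon, as for Mia2 (4 pairs), Gramd1a (3) and Gripap1 (2), 1 pair is given.

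The 108 nt exon of Gphn had the widest range, 82.3 points. It was in 91.9% of the pair's counts in Rod (interval 87.8 to 95), 95.7% in Cone (85.2 to 99.5) and 96.3% in MG (81.0 to 99.9), against 14% in BC (10.2 to 18.4) and 19.6% in AC (9.82 to 33.1). Within this pair, photoreceptors and glia were thus apart from AC and BC. The pair held 51 of the gene's 996 counts in AC and 301 of 838 in BC, against 247 of 293 in Rod and 27 of 29 in MG. The 8-exon isoform that led in AC and BC is outside the pair, so these are not shares of the whole gene. The 12 nt exon of Gramd1a, a sterol transfer protein, was in 91.4% in Cone, 76.0% in Rod, 58.1% in BC, 52.2% in AC and 12.3% in MG (5.08 to 23.7).

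Other exons set the MG column apart from the neuronal columns. The 66 nt exon of Ap2a1, the alpha subunit of the clathrin adaptor AP-2, was in 4.00% of the pair's counts in MG (interval 0.488 to 13.7) and in 61.5% to 78.2% in AC, BC, Cone and Rod. The 93 nt exon of Gripap1, a protein of recycling endosomes, was in 17.2% in MG (5.85 to 35.8), 51.0% in Cone, 63.2% in BC, 75.5% in Rod and 92.3% in AC. Both exons are divisible by 3 and both isoforms of each pair were annotated.

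The next exons differed among the neuronal columns, each in its own way. The 24 nt exon of Mars, the methionyl-tRNA synthetase, was in 49.6% in BC (45.5 to 53.7) and 45.0% in AC (39.5 to 50.5), against 15.8% in Cone, 11.4% in Rod and 4.58% in MG. The 21 nt exon of Arntl, the clock transcription factor BMAL1, went the other way, with 81.4% in Rod (79.1 to 83.5), 72.7% in Cone, 52.0% in BC, 31.9% in AC and 31.5% in MG. The 21 nt exon of Dctn1, the large subunit of dynactin, was in 87.3% in AC (76.5 to 94.4), 20.0% in BC and 14.7% in Rod, so that BC was like Rod and not like AC. The 27 nt exon of Mia2, a protein of endoplasmic reticulum exit sites, was in 71.9% of the pair's counts in Rod (62.7 to 79.9). It was in 0 of the pair's 22 counts in BC (interval 0 to 15.4) and 0 of 13 in Cone (interval 0 to 24.7). That pair had 83 counts with the exon and 85 without, of 789 for the gene.

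The ganglion cell column differed in 2 exons whose lengths are not divisible by 3. The 98 nt exon of Clasrp was in 21.4% of the pair's counts in RGC (12 of 56, interval 11.6 to 34.4), 87.2% in AC and 97.9% to 100% in BC, Cone, MG and Rod. The 89 nt exon of Xpnpep1, a cytosolic aminopeptidase, was in 11.9% in RGC (3.98 to 25.6), 37.8% in AC and 54.4% to 67.8% in BC, Cone, MG and Rod. The 68 nt exon of Map2k5, a kinase upstream of ERK5, was lowest in AC, at 41.2% (38.4 to 44.0), and 58.4% to 82.9% in the other 5 columns. In all 3 the isoform without the exon was unannotated.

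**Figure D5:**
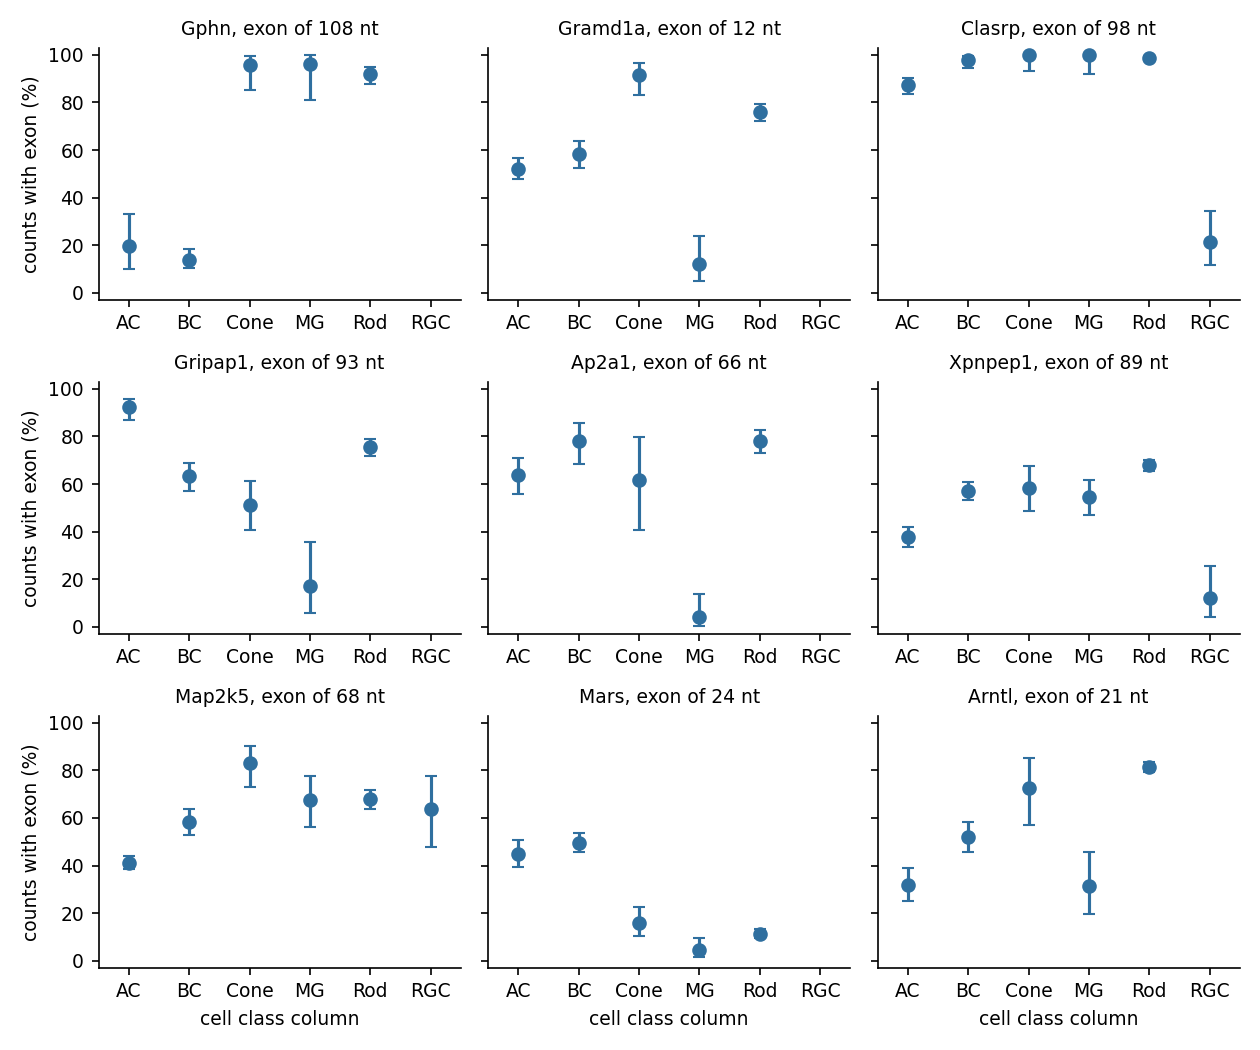
Share of an isoform pair's counts that contain the exon (percent, exact 95% binomial intervals) in each class column with at least 20 counts of the pair, for 9 exons. Gphn is high in Cone, MG and Rod and low in AC and BC, Ap2a1 and Gramd1a are low in MG, and Clasrp and Xpnpep1 are lowest in RGC.

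Some genes gave many isoforms of this size. Bag6, a chaperone for membrane proteins, had 10, Mia2 and Ehmt2, a histone methyltransferase, had 8 and Clasrp had 7. In Mia2 the 8 isoforms held 97.6% of the gene's counts, and in Clasrp the 7 held all 3452. In Bag6 the most abundant isoform was outside the set, with 8 exons, although the set held 74.6% of the counts. Of the unannotated isoforms with the most counts, Rap1gap, which switches off the small GTPase Rap1, had 24 exons, 69.1% of its gene's counts and levels of 20.4 CPM in BC and 17.0 in AC against 1.17 in Rod, and Tmem63b, a mechanosensitive ion channel, had 23 exons and 94.4% of its gene.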

How the data were processed

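The authors deposited whole-number counts for each isoform in every cell class, and transcript models whose source field reads FLAIR, a long-read isoform builder. The genome build is mm10, per the submitters' processing notes. The aligner, the counting method, the handling of molecular identifiers, cell typing and doublet removal are not given in the sources used here. All 6 columns were used and 0 were left out. Where nothing separates cultures or animals, a class is 1 sample.

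Exons were counted per model, and introns were compared with GENCODE M21 on GRCm38, the same assembly. An Ensembl identifier was found in M21 for 740 of 755 annotated isoforms, a numeric suffix set aside, and all 740 had the same introns there. CPM is the count divided by its column's total and multiplied by 1000000. Shares carry exact Clopper-Pearson 95% intervals and CPM exact Poisson intervals, and a count of 0 was given the limit of 3 counts. Reads are not shown to be separate molecules. Python 3.11.15 with pandas 2.3.3, numpy 2.4.6 and scipy 1.17.1 were used, and the trimmed mean of M-values and the median of ratios, written out in Python, were alternative scalings. The rules for restriction and switches were tested on simulated counts. Those for cassette exons, splicing events and parts of an intron chain were checked on small made-up exon lists.

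The set, the gene lists and the rules were chosen with earlier results of these data known. Isoforms were named as the 20 with the most counts, the 5 with the most exons, the 5 unannotated ones with the most counts, up to 3 restricted ones per class with at least 50 counts, the 5 genes with the most such isoforms, the 10 switches with the largest difference at 100 counts, and the 3 with the most counts in each of 16 gene lists, of which a selection is described; some genes that these rules name are not reported here. The cassette exons (14 by counts of the rarer isoform, 10 by range), and the genes named for having no isoform in the set, were chosen after their values were seen. Other exon and count minimums, scalings, cut-offs and reference isoforms were tried as alternatives. The planned test between classes with libraries as replicates was not run, since no column names a library.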

Additional observations from a re-analysis of the deposited data

Results flagged for a closer look

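Isoforms without a transcript model are outside the set, but 1241 of the 7899 carry an Ensembl identifier found in GENCODE M21, and 54 of those have 20 or more exons there. Isoforms without a model entered the column totals, gene totals and switches above, but never the set. The 54 drew attention because they held 1067 counts that the set left out, above the limit that a count of 0 allows. The counts were 683 in AC, 193 in BC, 141 in MG, 35 in RGC and 15 in Cone, with 0 in Rod. The 0 in Rod goes with the choice of isoforms without a model and is no result about these 54. The isoforms of the set held 0.352192% of the Rod column and also 0.352192% of its counts on isoforms with a model. By CPM, 20 of the 54 were highest in MG, 16 in AC, 11 in BC, 5 in RGC and 2 in Cone. Cpne5, a calcium-dependent membrane-binding protein with 21 exons in the reference, held 268 of the counts, 264 of them in AC and 4 in RGC. Clcn2, a chloride channel with 24 reference exons, followed with 51 counts, 26 in MG, 17 in AC and 8 in BC. Their structure was taken from the reference and not from a deposited model.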

How the results depend on the processing

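The annotated share of 51.6% was 47.5% at 15 or more exons, 55.9% at 25 and 63.2% at 30. It was 55.6% with at least 10 counts, 78.0% with at least 100, 59.4% when a full or partial match of an annotated intron chain counted, and 87.0% as a share of counts. The ratio of Rod to AC, 3.21, was 2.69 with the trimmed mean of M-values, 3.76 with the median of ratios, 3.4 at 15 exons, 3.14 at 25 (where MG with 639.8 CPM and BC with 487 stood above Rod with 471), 3.53 for annotated isoforms and 2.58 without Pfkl and Pde6b, an alternative chosen after seeing the data. Of the MG value at 25 exons, 239 CPM was on the Col9a1 isoform alone. The 214 restricted isoforms became 38 with at least 50 counts, 344 with no minimum, 612 at 50% of summed CPM, 95 at 95% and 65 at 25 exons, and 206, 220 and 212 under both other scalings and without the RGC column. The share of genes with 50% or more of their counts in the set, 45.1%, was 56.2% at 15 exons, 37.1% at 25, 49.5% without the isoforms that have no model and 43.7% with 100 counts. Switches that involve the set went from 126 to 19 with 100 counts in both classes, 180 at 25 percentage points and 127 with isoforms of the same introns summed. Skipped exons went from 27.7% to 42.9% against the isoform with the most exons, which put them ahead of alternative last exons (21.4%) and first exons (27.8%), and the share of reference genes from 39.1% to 48.5% with at least 100 counts and 39.2% for protein-coding transcripts. A higher minimum tests fewer isoforms or genes by construction, and otherwise the cause was not tested.

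No paired analysis was possible because counts were deposited per cell class and not per library, and leaving out a replicate was not run for the same reason. The median of 35 counts per isoform limits what can be said of a single isoform in the shallow Cone, MG and RGC columns.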
